A study of Homo sapiens with 6 samples.

Results

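The genes described here are 48 interferon-stimulated genes (ISGs), a set of antiviral effectors, sensors and regulators, followed in RNA sequencing of A549 cells, an epithelial line from a human lung adenocarcinoma. The members were taken as the rows whose gene name was one of 48 given names. All 48 names were found once each among the 58735 genes of the count tables, and all 48 had enough counts to be tested. The labels give 3 groups of 2 libraries, each described as A549 cells stably transduced with a lentivirus. In T133A cells the vector PLVX brought in HOXB9 in which a threonine is changed to alanine (T133A), in KO cells the label reads HOXB9 KO, and in WT cells the vector brought in unchanged HOXB9. HOXB9 is a homeobox transcription factor. Neither untreated cells nor cells with an empty vector were analysed here, so each KO with WT difference sets cells labelled KO against cells carrying added HOXB9. For the KO cells the labels do not say whether the gene was disrupted or its transcript reduced. The state of the endogenous HOXB9 gene in the T133A and WT groups is not stated in the labels, nor is it stated whether a group is 1 clone. No label names separate cultures either, and the p-values therefore reflect the spread among these libraries alone, which may be technical.

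Interferons bind receptors on the cell surface. For interferons other than interferon gamma, the receptor-bound kinases JAK1 and TYK2 then phosphorylate STAT2 and related transcription factors. STAT2 and IRF9 are subunits of the complex ISGF3, which enters the nucleus and binds interferon-stimulated response elements in the promoters of ISGs. Airway epithelial cells carry receptors for several interferon types, and many ISGs are also transcribed at a basal level without added interferon.

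The libraries held between 16299059 and 18745432 counts each. Levels are given in CPM, each count taken relative to its library's total after TMM scaling, and comparisons of level between genes use CPM per kilobase of gene length. Means are given ± SD over the 2 libraries of a group. HOXB9 (ENSG00000170689, chr17:48621159-48626356, reverse strand on GRCh38) had 275 and 210.3 CPM in the T133A libraries and 14.5 and 15.4 CPM in the KO libraries, against 222 and 217 CPM in the WT libraries. The KO libraries were the low ones, at 14.7-fold less than WT (log2 fold change -3.88, adjusted p = 3.27e-16), and T133A did not pass the test against WT (log2 fold change 0.14, adjusted p = 0.495). Levels were summed for 8 markers of epithelial cells or of A549 cells. The sum was 8039 to 9587 CPM in T133A and 7069 to 8462 CPM in KO, against 9249 to 9866 CPM in WT. The lung markers SFTPC and NKX2-1 were at or near 0 (at most 0.223 CPM). That sum is mostly KRT8, KRT18 and AKR1B10, and other markers of the list differed in KO: the adhesion molecule EPCAM had 13.0 and 12.5 CPM in the T133A libraries and 1.94 and 1.72 CPM in the KO libraries, against 14.5 and 16.9 CPM in the WT libraries (log2 fold change in KO with WT -3.10, adjusted p = 4.01e-11). CDH1, the epithelial cadherin, was lower in KO too (log2 fold change -0.88, adjusted p = 1.34e-06), and so was AKR1B10 (-0.35, adjusted p = 0.00889). AKR1B10 was also lower in T133A with WT (-0.76, adjusted p = 2.48e-05). Of 7 haematopoietic markers FCGR3A was among those at 0 in every library, and the summed level was 11.5 to 13.3 CPM in T133A and 5.58 to 11.0 CPM in KO, against 8.53 to 11.8 CPM in WT. Of 3 markers of plasmacytoid dendritic cells, a type known for its interferon output, CLEC4C and LILRA4 were at 0 throughout and the sum was 1.67 to 2.94 CPM in T133A and 1.09 to 1.18 CPM in KO, against 3.04 to 3.46 CPM in WT. Sums for 3 endothelial markers were 2.13 to 2.23 CPM in T133A and 0.182 to 0.215 CPM in KO, against 0.558 to 1.70 CPM in WT, and those for 4 fibroblast markers were 7.0 to 9.14 CPM in T133A and 9.35 to 10.3 CPM in KO, against 6.90 to 7.75 CPM in WT. Mitochondrial genes took 8.91% and 8.51% of the counts in T133A and 5.6% and 4.45% in KO, against 7.87% and 7.84% in WT. The part of these differences in the ISG results was not tested.

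Cells labelled KO had much less ISG transcript than either other group. The 48 genes together reached 11580.0 and 10707 CPM in the T133A libraries and 3932 and 4117 CPM in the KO libraries, against 11521 and 11680.2 CPM in the WT libraries. Both KO values lay far below all others, and the T133A values straddled the lower WT value. As means these were 11143 ± 617 CPM in T133A, 4025 ± 130.4 CPM in KO and 11600.4 ± 113 CPM in WT (SD, n = 2 each). ISGs took 1.10% and 1.07% of all counts in T133A and 0.397% and 0.408% in KO, against 1.18% and 1.19% in WT. In bulk RNA, fewer cells with the transcripts and less transcript per cell cannot be told apart.

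Gene by gene, 47 of the 48 ISGs fell in KO relative to WT and none was called higher. Differences were called where the adjusted p of edgeR's quasi-likelihood test (Benjamini-Hochberg over all 16340 genes tested) was under 0.05. By the same rule 23.0% of all genes tested were lower in KO and 23.6% were higher. No ISG had a positive fold change in that fit, and DESeq2 and limma-voom also called none higher. The KO libraries lay below both WT libraries for all 48, which was true of 37.5% of all genes tested. The median ISG was 3.41-fold lower in KO (median log2 fold change -1.77, against 0.001 over all genes tested), 40 were at least 2-fold lower, and 18 were at least 4-fold lower. In T133A with KO all 48 were called higher (20.3% of all genes tested were higher and 19.6% lower), with a median of 2.83-fold and a median log2 fold change of 1.5, against -0.010 over all genes tested. In T133A with WT 1 ISG was called higher, 6 lower and 41 neither, beside 5.58% higher and 3.97% lower of all genes tested, and the median log2 fold change was -0.08 (0.004 over all genes tested). These 3 comparisons share libraries in pairs, so their values for a gene are given side by side and are not independent of each other. The histograms of fold changes and the map of all 48 genes by library show both patterns.

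**Figure D1:**
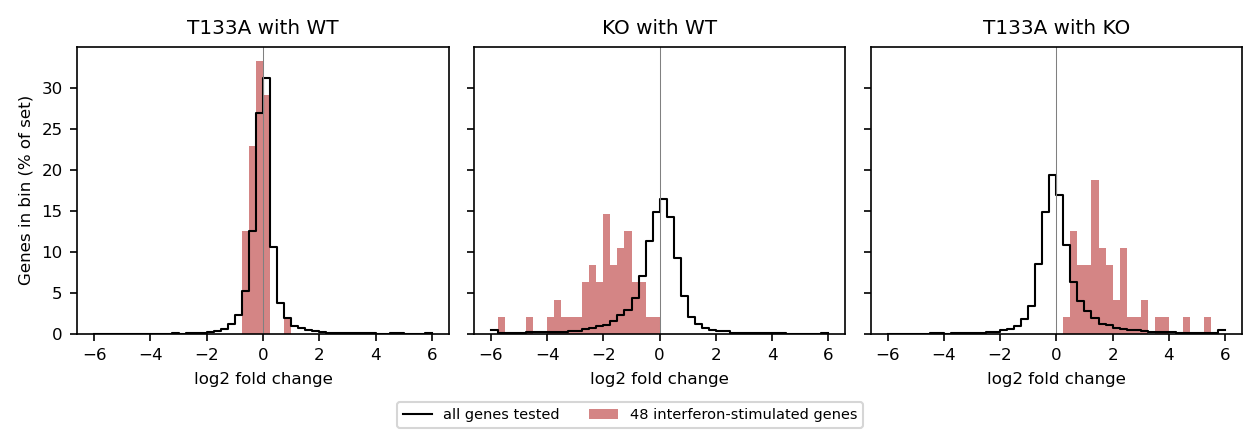
Distribution of log2 fold changes (x axis, bins of 0.25; values past either end are in the end bin) as a percentage of each gene set (y axis) for the 48 ISGs (bars) and for all 16340 genes tested (line), with 1 panel per comparison. The ISG bars lie left of 0 in KO with WT and right of 0 in T133A with KO, and surround 0 in T133A with WT.

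**Figure D2:**
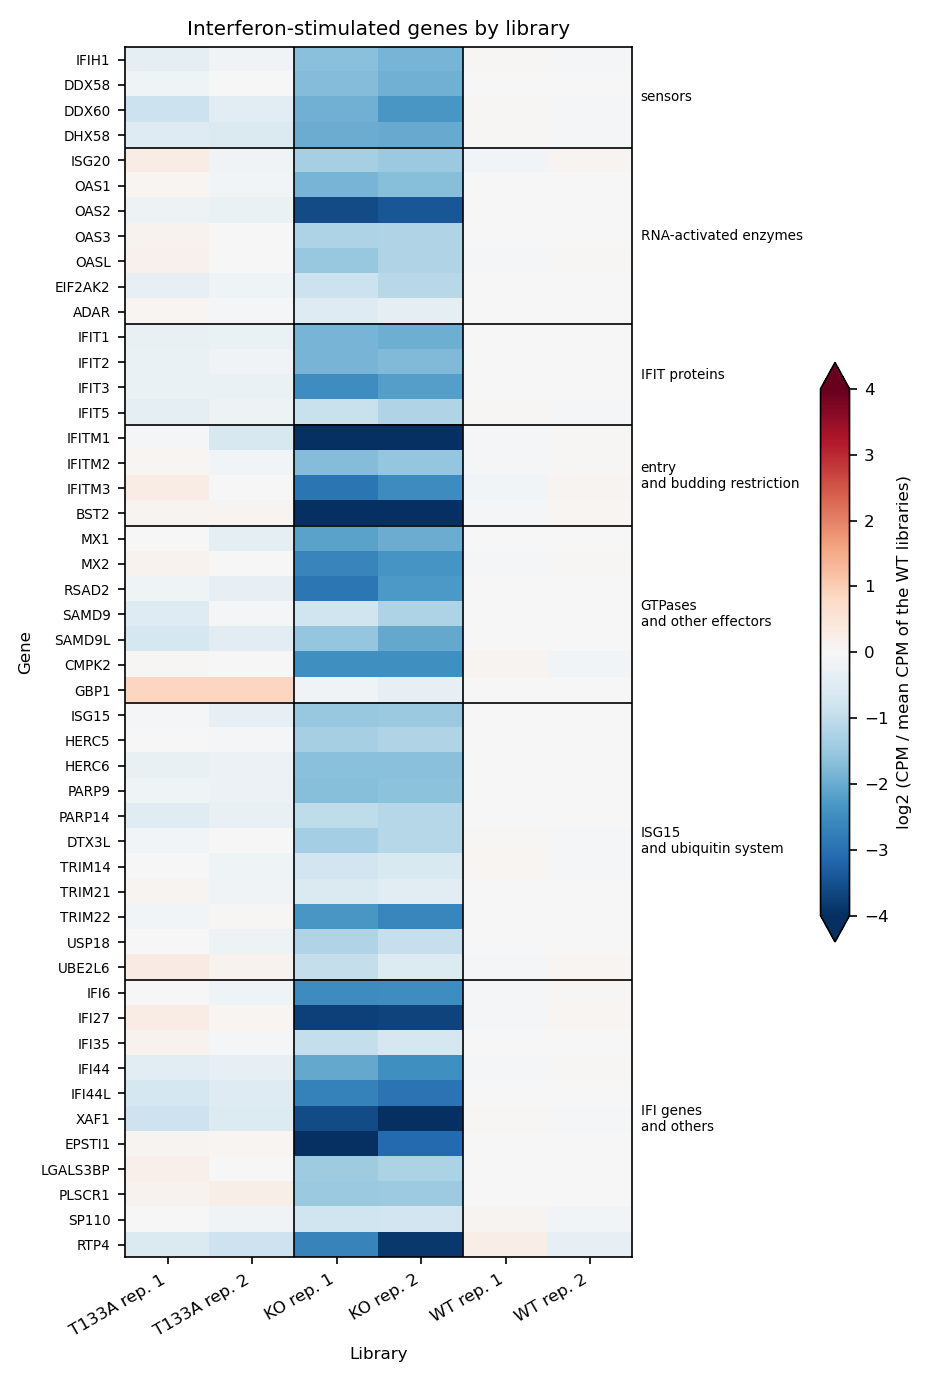
Level of each of the 48 ISGs (rows, grouped by role) in each library (columns), as log2 of its CPM over the mean CPM of the WT libraries, with colours saturating at both ends of the scale. The KO columns are blue for nearly every gene. IFITM1 and BST2 reach the end of the colour scale in both KO libraries. GBP1 has the strongest red in both T133A libraries.

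Promoter sequence was examined because ISGF3 binds a short element upstream of ISGs. RefSeq promoter entries (GRCh38.p14) were found for 40 of the 48 ISGs, in 55 windows, since some genes have several starts. The 250 bases before each start were searched on both strands for GAAANNGAA, the core of the interferon-stimulated response element (TTCNNTTTC on the other strand), with overlapping matches counted separately. It occurred in 32 of the 55 ISG windows (58.2%) and in 27 of the 40 genes, against 6.88% of all 35091 promoter windows of the same length. TTCNNNGAA, the core of the gamma-activated element and its own reverse complement, occurred in 11 of the 55 windows (20.0%) and in 10 of the 40 genes, against 6.57% of all windows. Among the 27 ISGs with a GAAANNGAA match the median log2 fold change in KO with WT was -1.89 (range -5.72 to -0.24), and among the 13 without one it was -1.25 (range -3.87 to -0.45). A match is a description of these letters and not a mapped binding site, and absence of a match says only that the letters are not in that window. The 13 genes without it were ADAR, CMPK2, DDX58, DTX3L, EIF2AK2, HERC6, IFI35, OAS1, SAMD9L, SP110, TRIM21, UBE2L6 and XAF1.

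Stretches of 100 bases are shown for the 5 ISGs with the smallest adjusted p in KO with WT that had an entry with a match, and for GBP1, the one ISG that was not called in that comparison. Each is written 5′ to 3′ on the strand of the gene, ends upstream of the RefSeq start, and has its GAAANNGAA or TTCNNTTTC matches in capitals.
IFITM1, chr11:313940-314039, forward strand: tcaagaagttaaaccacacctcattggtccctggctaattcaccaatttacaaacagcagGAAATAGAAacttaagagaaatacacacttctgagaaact
BST2, chr19:17405704-17405803, reverse strand: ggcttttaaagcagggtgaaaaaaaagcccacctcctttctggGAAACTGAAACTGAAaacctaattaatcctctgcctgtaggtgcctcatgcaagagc
IFI27, chr14:94110589-94110688, forward strand: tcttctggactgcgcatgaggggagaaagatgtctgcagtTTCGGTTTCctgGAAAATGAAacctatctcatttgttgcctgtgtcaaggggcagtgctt
IFI6, chr1:27672263-27672362, reverse strand: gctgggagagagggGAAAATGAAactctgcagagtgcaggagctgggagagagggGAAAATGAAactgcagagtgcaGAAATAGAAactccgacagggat
IFI44L, chr1:78620329-78620428, forward strand: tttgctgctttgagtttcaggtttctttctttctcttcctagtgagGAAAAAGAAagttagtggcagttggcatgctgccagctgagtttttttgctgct
GBP1, chr1:89065281-89065380, reverse strand: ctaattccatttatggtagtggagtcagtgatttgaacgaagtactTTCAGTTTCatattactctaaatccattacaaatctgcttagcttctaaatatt
IFITM1, IFI44L and GBP1 have 1 capitalised match in the stretch, BST2 has 2 that overlap, IFI27 has 2 in opposite orientations, and IFI6 has 3, of which 2 are the same letters in a repeated segment. A link between these matches and the size of the difference between KO and WT was not tested.

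Membrane proteins that restrict the entry and budding of viruses had the largest median fall in KO of the roles described. All 4 fell, with a median log2 fold change of -3.63. IFITM1 (ENSG00000185885, chr11:313506-315272, forward strand), an interferon-induced transmembrane protein that hinders fusion of viral and cell membranes, had 285 and 195 CPM in the T133A libraries and 5.46 and 5.92 CPM in the KO libraries, against 290.0 and 312 CPM in the WT libraries. Both KO libraries stood far below the other 4, and T133A replicate 2 lay below T133A replicate 1. IFITM1 was 52.8-fold lower in KO than in WT (log2 fold change -5.72, SE 0.17, adjusted p = 2.71e-17), the largest difference among the 48, and T133A lay 42.0-fold above KO (adjusted p = 4.94e-17). BST2 (ENSG00000130303, chr19:17402939-17405648, reverse strand), or tetherin, which holds budding virions at the cell surface, had 121 and 121 CPM in the T133A libraries and 5.46 and 4.14 CPM in the KO libraries, against 106 and 118 CPM in the WT libraries. Both KO libraries were low and both T133A libraries slightly exceeded WT. BST2 was 23.5-fold lower in KO than in WT (log2 fold change -4.55, SE 0.15, adjusted p = 7.01e-17), and T133A lay 25.3-fold above KO (adjusted p = 3.35e-17). IFITM3 (ENSG00000142089, chr11:319669-327537, reverse strand), which acts at endosomes, had 189 and 154 CPM in the T133A libraries and 20.1 and 26.9 CPM in the KO libraries, against 143 and 165 CPM in the WT libraries, so that T133A and WT overlapped and KO stood below both. It was 6.53-fold lower in KO than in WT (log2 fold change -2.71, SE 0.14, adjusted p = 3.78e-13), and T133A lay 7.26-fold above KO (adjusted p = 1.43e-13). IFITM2, its close paralogue, averaged 137 ± 13.5 CPM in T133A and 44.7 ± 4.11 CPM in KO, against 139 ± 6.04 CPM in WT (log2 fold change in KO with WT -1.63, adjusted p = 7.09e-11). IFITM1 is annotated wholly inside the span of IFITM2 on the same strand, over 1767 bases, and the 3 IFITM sequences are similar, so reads may have been split or dropped between them.

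RNA-activated enzymes were lower in KO in 7 of 7 cases (median log2 fold change -1.34), with OAS2 far apart from its neighbours. OAS1, OAS3 and OAS2 lie side by side on chromosome 12 and encode synthases whose oligoadenylate product switches on RNase L. OAS2 (ENSG00000111335, chr12:112978395-113011723, forward strand) had 369 and 354 CPM in the T133A libraries and 35.8 and 40.3 CPM in the KO libraries, against 433 and 424 CPM in the WT libraries. KO was low in both libraries, and T133A lay below WT without overlap. It was 11.3-fold lower in KO than in WT (log2 fold change -3.49, SE 0.11, adjusted p = 7.59e-17), and T133A lay 9.50-fold above KO (adjusted p = 1.82e-16). OAS1 averaged 349.6 ± 32.1 CPM in T133A and 103 ± 9.05 CPM in KO, against 354 ± 7.69 CPM in WT (SD, n = 2 each), and OAS3, the highest of the 3 per kilobase, 849 ± 48.7 CPM in T133A and 344 ± 5.90 CPM in KO, against 801 ± 12.4 CPM in WT. Their log2 fold changes in KO with WT were -1.77 (adjusted p = 7.16e-12) and -1.22 (adjusted p = 1.58e-09). OASL, a relative without synthase activity on chromosome 12 but not in the cluster, had a log2 fold change of -1.34 (adjusted p = 1.82e-08). ISG20, an RNA exonuclease, averaged 17.6 ± 3.54 CPM in T133A and 6.27 ± 0.492 CPM in KO, against 16.6 ± 1.91 CPM in WT (log2 fold change -1.40, adjusted p = 1.41e-06). EIF2AK2, the kinase PKR that halts translation on double-stranded RNA, averaged 324 ± 23.7 CPM in T133A and 196 ± 22.8 CPM in KO, against 386 ± 5.28 CPM in WT (log2 fold change -0.97, adjusted p = 1.15e-07). ADAR, which edits adenosine to inosine and has a promoter that works without interferon, was the least reduced of the called ISGs: it averaged 1014 ± 73.7 CPM in T133A and 735 ± 44.0 CPM in KO, against 1004 ± 11.5 CPM in WT, with a log2 fold change of -0.45 (adjusted p = 0.0012).

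IFIT proteins, which bind viral RNA ends and block their translation, fell in KO in 4 of 4 cases (median log2 fold change -1.85). The 4 genes lie in a row on chromosome 10. IFIT1 (ENSG00000185745, chr10:89392546-89406486, forward strand) had 420.1 and 429.7 CPM in the T133A libraries and 142 and 133.2 CPM in the KO libraries, against 513 and 509 CPM in the WT libraries. IFIT3 (ENSG00000119917, chr10:89327894-89340971, forward strand), which stabilises IFIT1, had 173 and 174 CPM in the T133A libraries and 37.3 and 45.4 CPM in the KO libraries, against 207 and 213 CPM in the WT libraries. For both genes KO lay below T133A and T133A below WT, with no overlap. IFIT1 was 3.72-fold lower in KO than in WT (log2 fold change -1.89, SE 0.10, adjusted p = 7.32e-13), and IFIT3 was 5.07-fold lower in KO than in WT (log2 fold change -2.34, SE 0.11, adjusted p = 1.25e-13). T133A was 3.09-fold above KO for IFIT1 (adjusted p = 9.01e-12) and 4.19-fold above KO for IFIT3 (adjusted p = 9.21e-13). IFIT2 averaged 56.2 ± 3.56 CPM in T133A and 18.4 ± 0.981 CPM in KO, against 64.4 ± 1.29 CPM in WT (log2 fold change -1.81, adjusted p = 4.42e-11). IFIT5, at the distal end of the row, was reduced least, at 82.1 ± 5.58 CPM in T133A and 48.7 ± 7.77 CPM in KO, against 99.7 ± 4.57 CPM in WT (log2 fold change -1.03, adjusted p = 2.55e-07). IFIT1, IFIT2 and IFIT3 are annotated within the span of LIPA on the opposite strand, and the strand setting of the counting is not given in the sources used here.

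Sensors of viral RNA fell in KO in 4 of 4 cases, within a narrow range of log2 fold changes from -2.10 to -1.77. DDX60 (ENSG00000137628, chr4:168216293-168318807, reverse strand), a helicase linked to RIG-I signalling, had 67.8 and 90.1 CPM in the T133A libraries and 32.3 and 24.4 CPM in the KO libraries, against 126 and 117 CPM in the WT libraries. KO was lowest, and both T133A libraries were also below both WT libraries. DDX60 was 4.30-fold lower in KO than in WT (log2 fold change -2.10, SE 0.14, adjusted p = 4.28e-11), and T133A lay 2.79-fold above KO (adjusted p = 1.64e-08). DDX58, which encodes RIG-I, averaged 181 ± 16.2 CPM in T133A and 53.8 ± 4.49 CPM in KO, against 191 ± 3.77 CPM in WT (log2 fold change -1.83, adjusted p = 5.99e-12). IFIH1, which encodes MDA5, averaged 61.8 ± 7.23 CPM in T133A and 21.8 ± 1.85 CPM in KO, against 74.0 ± 2.75 CPM in WT (log2 fold change -1.77, adjusted p = 9.66e-11). DHX58, which encodes the regulatory helicase LGP2, was the least abundant sensor per kilobase, with 4.77 ± 0.171 CPM in T133A and 1.74 ± 0.0270 CPM in KO, against 6.97 ± 0.393 CPM in WT (log2 fold change -2.0, adjusted p = 6.81e-07).

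Among the GTPases and other intracellular effectors 6 of 7 fell in KO (median log2 fold change -2.05), and GBP1 was the exception. MX2 (ENSG00000183486, chr21:41361943-41409390, forward strand), a dynamin-like GTPase that restricts HIV, had 40.0 and 36.4 CPM in the T133A libraries and 5.89 and 7.16 CPM in the KO libraries, against 35.4 and 37.6 CPM in the WT libraries. T133A and WT overlapped and KO was low. It was 5.58-fold lower in KO than in WT (log2 fold change -2.48, SE 0.15, adjusted p = 7.47e-12), and T133A lay 5.83-fold above KO (adjusted p = 4.35e-12). MX1, its neighbour on chromosome 21 that restricts influenza viruses, averaged 400.3 ± 75.2 CPM in T133A and 109 ± 7.94 CPM in KO, against 451 ± 4.81 CPM in WT (log2 fold change -2.05, adjusted p = 3.59e-12). CMPK2 (ENSG00000134326, chr2:6840570-6866635, reverse strand), a nucleotide kinase, had 86.9 and 84.0 CPM in the T133A libraries and 15.5 and 15.3 CPM in the KO libraries, against 90.6 and 78.6 CPM in the WT libraries, again with T133A and WT overlapping. It was 5.48-fold lower in KO than in WT (log2 fold change -2.45, SE 0.12, adjusted p = 2.27e-13), and T133A lay 5.53-fold above KO (adjusted p = 1.84e-13). RSAD2, or viperin, which makes a chain-terminating nucleotide, lies next to CMPK2 on the other strand and averaged 27.6 ± 2.32 CPM in T133A and 5.58 ± 1.62 CPM in KO, against 32.8 ± 0.123 CPM in WT (log2 fold change -2.55, adjusted p = 4.38e-11). The 2 annotations overlap by 830 bases, so some of their counts may be shared.

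SAMD9L (ENSG00000177409, chr7:93130055-93148369, reverse strand), a growth suppressor and restriction factor, had 31.9 and 38 CPM in the T133A libraries and 17.7 and 12.7 CPM in the KO libraries, against 53.3 and 51.3 CPM in the WT libraries. The 3 groups did not overlap, with KO lowest and WT highest. It was 3.45-fold lower in KO than in WT (log2 fold change -1.79, SE 0.15, adjusted p = 1.63e-09), and T133A lay 2.30-fold above KO (adjusted p = 1.1e-06). Its neighbour SAMD9 averaged 74.8 ± 16.9 CPM in T133A and 45.2 ± 9.65 CPM in KO, against 90.8 ± 1.37 CPM in WT (log2 fold change -1.01, adjusted p = 6.32e-06). GBP1 (ENSG00000117228, chr1:89052319-89065360, reverse strand), a guanylate-binding protein that coats intracellular pathogens and is a classical target of interferon gamma, had 32.8 and 33.1 CPM in the T133A libraries and 16.5 and 14.5 CPM in the KO libraries, against 18.2 and 18.3 CPM in the WT libraries. Both KO libraries lay below both WT libraries, but by little (log2 fold change -0.24, SE 0.14, adjusted p = 0.176). T133A was the high group for GBP1, 2.13-fold above KO (adjusted p = 1.22e-06).

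All 11 genes of the ISG15 and ubiquitin system fell in KO (median log2 fold change -1.25). ISG15, a ubiquitin-like protein that is joined to target proteins, was 3rd in level per kilobase among the 48 in all 3 groups. It averaged 282 ± 41.2 CPM in T133A and 112 ± 1.78 CPM in KO, against 318 ± 9.59 CPM in WT (log2 fold change -1.5, adjusted p = 1.72e-10). UBE2L6, its conjugating enzyme, averaged 229 ± 19.6 CPM in T133A and 117 ± 23.8 CPM in KO, against 195 ± 13.2 CPM in WT (log2 fold change -0.74, adjusted p = 3.08e-05). HERC5, its main human ligase, had a log2 fold change of -1.25 and the adjacent HERC6 one of -1.68 (adjusted p = 1e-08 and 1.39e-11). USP18, the protease that removes ISG15 and dampens interferon receptor signalling, averaged 51.9 ± 5.34 CPM in T133A and 26.6 ± 3.51 CPM in KO, against 55.0 ± 1.52 CPM in WT (log2 fold change -1.05, adjusted p = 6.02e-07). PARP9 and DTX3L, partners in a complex that joins ADP-ribosylation with ubiquitination, are encoded head to head on chromosome 3 and had log2 fold changes of -1.68 and -1.25 (adjusted p = 6.19e-12 and 1.67e-09). Their annotations overlap by 340 bases.

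PARP14 (ENSG00000173193, chr3:122680618-122730840, forward strand), a mono-ADP-ribosyltransferase in the same stretch of chromosome 3, had 206 and 234 CPM in the T133A libraries and 143 and 129.5 CPM in the KO libraries, against 292 and 284 CPM in the WT libraries. The 3 groups did not overlap, and it was 2.11-fold lower in KO than in WT (log2 fold change -1.08, SE 0.10, adjusted p = 1.8e-08). TRIM22 (ENSG00000132274, chr11:5689689-5737089, forward strand), an antiviral ubiquitin ligase, had 95.4 and 107 CPM in the T133A libraries and 20.6 and 16.9 CPM in the KO libraries, against 102 and 105 CPM in the WT libraries. Here T133A overlapped with WT and KO was low, and TRIM22 was 5.51-fold lower in KO than in WT (log2 fold change -2.46, SE 0.12, adjusted p = 2.57e-13). For this gene T133A lay 5.39-fold above KO (adjusted p = 2.78e-13). TRIM22 lies within the span of TRIM5 on the opposite strand. Of the other TRIM genes, TRIM14, an adaptor of mitochondrial antiviral signalling, had a log2 fold change of -0.69 (adjusted p = 1.73e-05). TRIM21, a cytosolic antibody receptor, had one of -0.53 (adjusted p = 0.00116), with 51.6 ± 6.58 CPM in T133A and 36.1 ± 2.22 CPM in KO, against 52.1 ± 0.240 CPM in WT.

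The remaining 11 genes all fell in KO (median log2 fold change -2.50). IFI27 (ENSG00000165949, chr14:94104836-94116698, forward strand), a small hydrophobic mitochondrial protein, had 655 and 565 CPM in the T133A libraries and 39.9 and 40.7 CPM in the KO libraries, against 507 and 554 CPM in the WT libraries. KO was low in both libraries and T133A lay above WT. It was 13.2-fold lower in KO than in WT (log2 fold change -3.72, SE 0.12, adjusted p = 7.01e-17), and T133A lay 15.1-fold above KO (adjusted p = 2.09e-17). IFI6 (ENSG00000126709, chr1:27666061-27672218, reverse strand), of the same family, had 875 and 786 CPM in the T133A libraries and 153 and 157 CPM in the KO libraries, against 853 and 906 CPM in the WT libraries. T133A and WT overlapped, and IFI6 was 5.67-fold lower in KO than in WT (log2 fold change -2.50, SE 0.11, adjusted p = 1.75e-14). For IFI6 T133A lay 5.36-fold above KO (adjusted p = 2.66e-14). XAF1 (ENSG00000132530, chr17:6755447-6775647, forward strand), an antagonist of the apoptosis inhibitor XIAP, had 22.8 and 27.5 CPM in the T133A libraries and 3.34 and 2.21 CPM in the KO libraries, against 41.3 and 39.1 CPM in the WT libraries. The 3 groups did not overlap, and it was 14.6-fold lower in KO than in WT (log2 fold change -3.87, SE 0.19, adjusted p = 1.24e-13). For XAF1 T133A lay 9.12-fold above KO (adjusted p = 4.54e-12).

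IFI44L (ENSG00000137959, chr1:78619922-78646145, forward strand), a cytoplasmic interferon-induced protein, had 90.3 and 104 CPM in the T133A libraries and 22.4 and 18.8 CPM in the KO libraries, against 149.7 and 144 CPM in the WT libraries. IFI44 (ENSG00000137965, chr1:78649796-78664078, forward strand), its neighbour and paralogue, had 88.1 and 94.3 CPM in the T133A libraries and 28.9 and 21.5 CPM in the KO libraries, against 115 and 122 CPM in the WT libraries. In both genes KO was lowest, T133A intermediate and WT highest, with no overlap. IFI44L was 7.13-fold lower in KO than in WT (log2 fold change -2.83, SE 0.12, adjusted p = 1.75e-14), and IFI44 was 4.70-fold lower in KO than in WT (log2 fold change -2.23, SE 0.13, adjusted p = 2.83e-12). T133A was above KO 4.71-fold for IFI44L (adjusted p = 9.13e-13) and 3.63-fold for IFI44 (adjusted p = 6.35e-11). LGALS3BP, a secreted glycoprotein that binds galectins, averaged 1835 ± 204 CPM in T133A and 682 ± 55.4 CPM in KO, against 1718 ± 46.1 CPM in WT (log2 fold change -1.33, adjusted p = 1.93e-09). PLSCR1, a phospholipid scramblase, had a log2 fold change of -1.45 (adjusted p = 6.56e-11). IFI35 and the nuclear body protein SP110 were reduced less, at -0.8 and -0.77 (adjusted p = 6.95e-06 and 4e-05).

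EPSTI1 and RTP4 were the least abundant members per kilobase. EPSTI1 had 79 and 74 counts in T133A and 3 and 9 in KO, against 71 and 75 in WT (log2 fold change in KO with WT -3.58, SE 0.39, adjusted p = 9.32e-08). RTP4, a chaperone of membrane receptors, had 18 and 15 counts in T133A and 4 and 2 in KO, against 32 and 22 in WT (log2 fold change -3.12, SE 0.61, adjusted p = 0.000235). KO was low in both genes, but the fitted sizes rest on few counts and carry the widest errors of the 48.

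The order of levels within the set differed between KO and the other groups. Per kilobase of gene length, IFI6, LGALS3BP, ISG15, IFITM1 and IFI27 led in both T133A and WT: in WT they stood at 1017, 479, 338, 279 and 128 CPM per kilobase. In KO the leading genes were LGALS3BP, IFI6, ISG15 and ADAR, at 190.3, 179, 119.5 and 75.8 CPM per kilobase. IFITM1 was 4th in T133A and WT but 31st in KO, and BST2 was 7th in T133A and 33rd in KO, against 9th in WT. Across the 48 genes the log2 fold change of KO with WT showed a Spearman correlation of -0.01 with the WT level per kilobase and of 0.04 with transcript GC content, as a description across genes, which are not independent.

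Differences between T133A and WT were small beside those of KO. Of the 48 ISGs, 33 had a negative log2 fold change in T133A with WT, and the range ran from -0.68 to 0.85. Both T133A libraries lay below both WT libraries for 21 genes, above them for 7, and overlapped with WT for 20; of all genes tested 25.7% had both T133A libraries below both WT libraries and 27.8% had both above. The 6 genes that fell were XAF1 (log2 fold change -0.68, SE 0.15, adjusted p = 0.00337), DDX60 (-0.62, SE 0.13, adjusted p = 0.00307), IFI44L (-0.60, SE 0.11, adjusted p = 0.000819), SAMD9L (-0.58, SE 0.14, adjusted p = 0.00881), PARP14 (-0.39, SE 0.10, adjusted p = 0.017) and IFI44 (-0.37, SE 0.12, adjusted p = 0.0491). SAMD9L was no longer called without WT replicate 1 (adjusted p = 0.0605). PARP14 was no longer called without T133A replicate 1 (adjusted p = 0.117), WT replicate 1 (adjusted p = 0.214) or WT replicate 2 (adjusted p = 0.121). IFI44 lost its call without the same libraries (adjusted p = 0.135, 0.16 and 0.311, in that order). GBP1 rose, with a log2 fold change of 0.85 (SE 0.14, adjusted p = 0.000142), and both T133A libraries lay well above both WT libraries. In the 6 genes that fell in T133A the fall in KO was larger: XAF1, for instance, averaged 25.1 ± 3.36 CPM in T133A and 2.77 ± 0.8005 CPM in KO, against 40.2 ± 1.499 CPM in WT (SD, n = 2 each). All 4 IFIT genes had both T133A libraries below both WT libraries, with log2 fold changes of -0.28 to -0.20, without passing the test. IFITM1, IFI27, BST2 and OAS2, the genes with the smallest adjusted p in KO with WT, had log2 fold changes of -0.33, 0.20, 0.11 and -0.25 in T133A with WT (adjusted p = 0.117, 0.252, 0.623 and 0.132). The plot of fold changes by gene sets T133A with WT beside KO with WT.

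**Figure D3:**
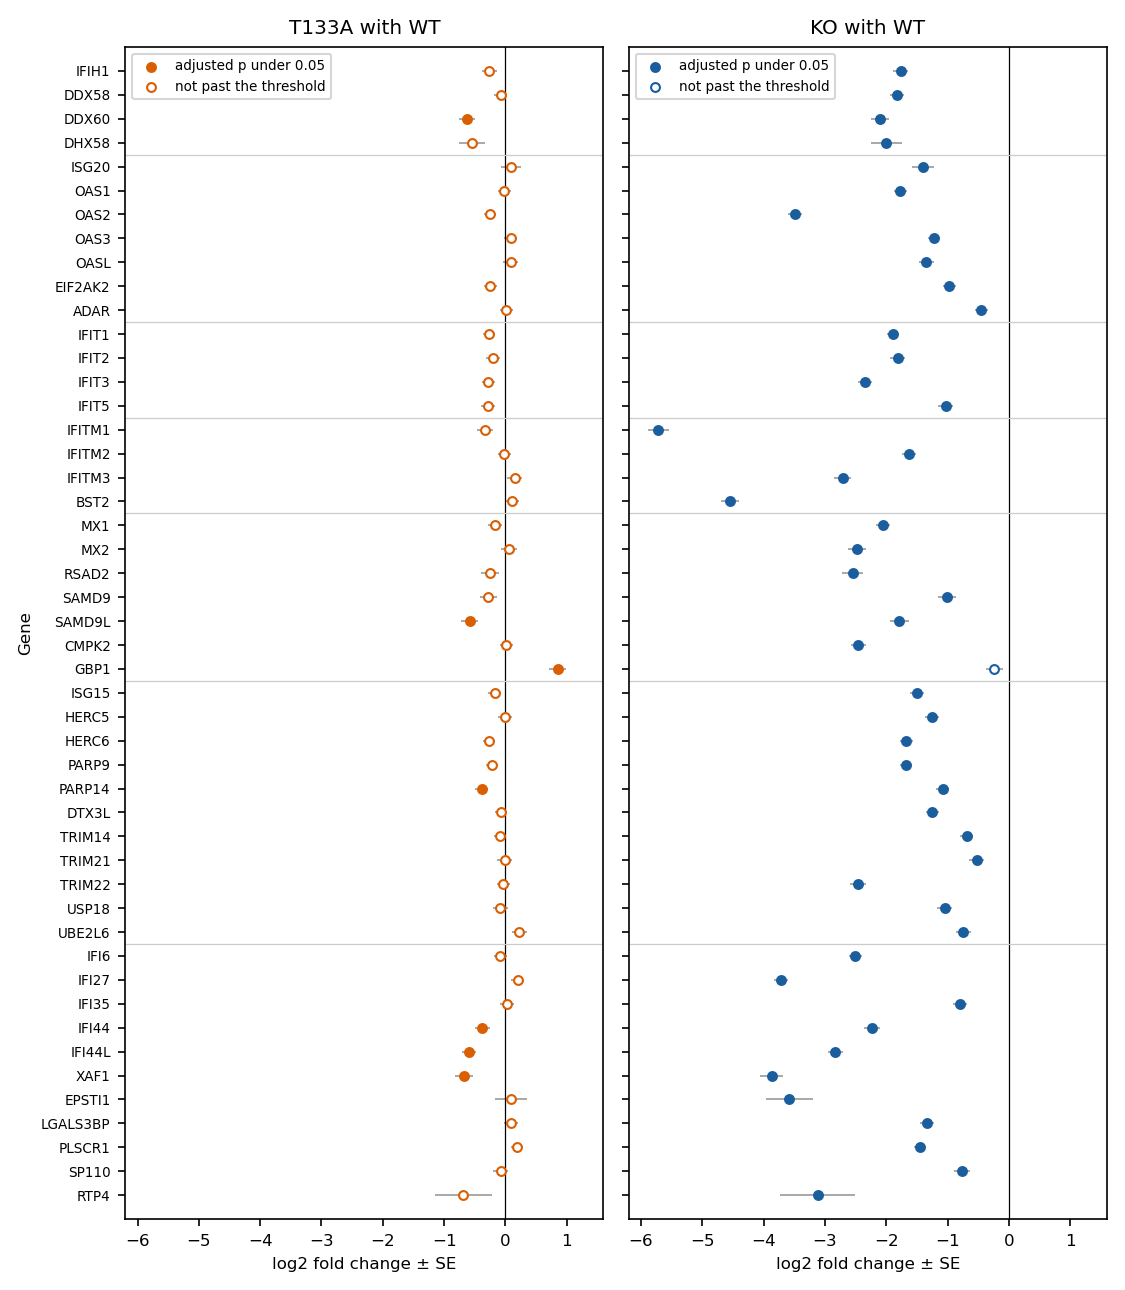
Log2 fold change ± SE (x axis) of each ISG (y axis, in groups by role) in T133A with WT (left) and KO with WT (right), 2 libraries per group, with filled points for an adjusted p under 0.05. In T133A all points lie between -0.68 and 0.85, and in KO they run from -5.72 to -0.24.

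The 6 ISGs called lower in T133A with WT were among those with low GC content. The 6 ISGs that fell had a median GC content of 39.1% in their longest transcript (range 37.8% to 43.0%), the 41 not called had 48.8%, and all genes tested had 48.4%. GBP1, the 1 ISG that rose, had a GC content of 42.8%, within the range of the 6. Across the 48 ISGs GC content and the log2 fold change of T133A with WT had a Spearman correlation of 0.46. Over 16332 genes this correlation was 0.167. Over the same genes the difference between the 2 replicates of a group correlated with GC content at 0.50 in T133A, -0.286 in KO and -0.18 in WT. Any part of base composition in the T133A differences was not tested. With an offset for GC content and length in each library, 12 ISGs were called lower and 2 higher. Calls over all 16340 genes tested also rose, from 1560 (58.5% of them higher) to 2272 (61.2% higher). The 12 held the same 6 genes along with MX1, OAS2, IFIT1, IFIT3, DHX58 and HERC6, and PLSCR1 joined GBP1 among the higher. Without T133A replicate 2 the counts were 10 lower and 2 higher, and without WT replicate 1 they were 3 lower and 1 higher.

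**Figure D4:**
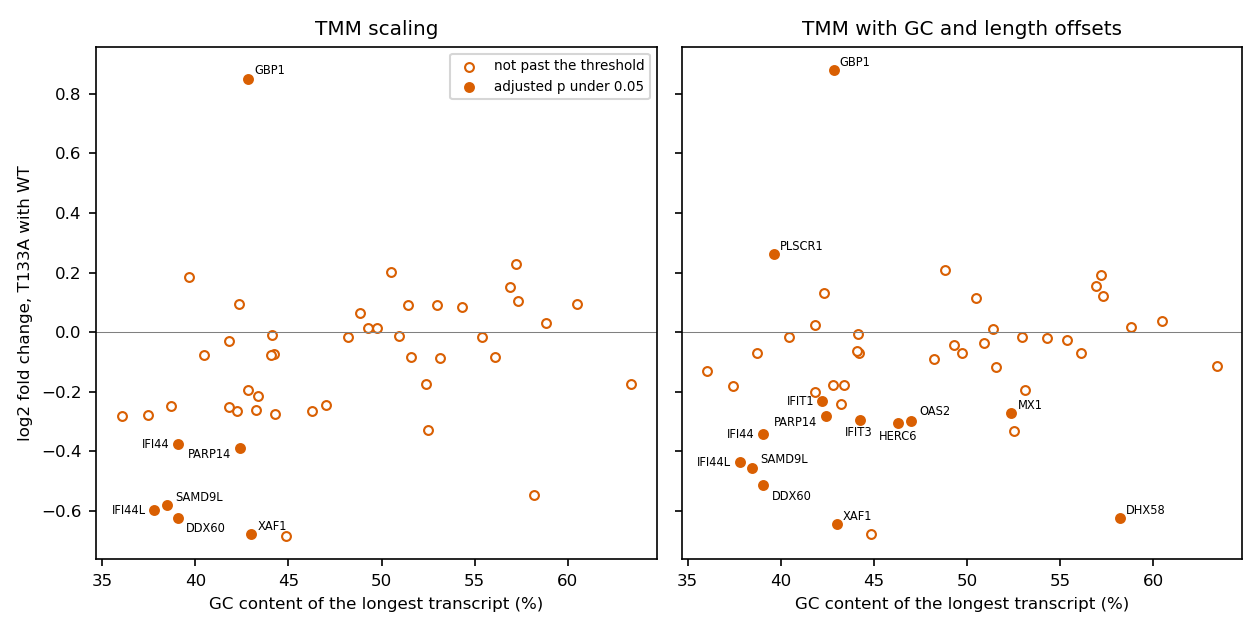
Log2 fold change of T133A with WT (y axis) against GC content of the longest transcript (x axis, %) for the 48 ISGs, with TMM scaling (left) and with added GC and length offsets (right); filled, named points have an adjusted p under 0.05. The 6 falling genes at left lie at 37.8% to 43.0% GC, and with offsets 12 genes are called lower, up to the GC content of DHX58 (58.2%).

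Of 34 genes of interferon production, reception, signalling and feedback, 27 had enough counts to be tested. In KO with WT 11 were lower and 5 higher, in T133A with WT 1 was lower and 7 higher, and in T133A with KO 2 were lower and 14 higher. Over all genes tested the shares were 23.0% lower and 23.6% higher in KO with WT, 3.97% and 5.58% in T133A with WT, and 19.6% and 20.3% in T133A with KO. The median log2 fold change was -0.31 in KO with WT, 0.13 in T133A with WT and 0.49 in T133A with KO. STAT2 had 127 and 102 CPM in the T133A libraries and 40.0 and 46.1 CPM in the KO libraries, against 120.1 and 118 CPM in the WT libraries. IRF7, a regulator of interferon genes, had 128 and 106 CPM in the T133A libraries and 53.8 and 52.5 CPM in the KO libraries, against 113 and 116 CPM in the WT libraries. KO was low in both, with log2 fold changes in KO with WT of -1.47 for STAT2 and -1.11 for IRF7 (adjusted p = 1.04e-09 and 3.64e-08). IRF9, the DNA-binding subunit of ISGF3, averaged 5.08 ± 1.28 CPM in T133A and 2.80 ± 1.37 CPM in KO, against 7.41 ± 0.641 CPM in WT (log2 fold change in KO with WT -1.42, adjusted p = 0.000214). STAT2, IRF9 and IRF7 are themselves interferon-inducible. None of these 3 passed the test in T133A with WT, where their log2 fold changes were -0.06, -0.54 and 0.04.

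IFNGR1, the ligand-binding chain of the interferon gamma receptor, had 159 and 181 CPM in the T133A libraries and 33.8 and 39.3 CPM in the KO libraries, against 51.6 and 53.0 CPM in the WT libraries. T133A was the high group, KO the low one, and the groups did not overlap. It rose in T133A with WT (log2 fold change 1.70, adjusted p = 1.87e-10) and fell in KO with WT (-0.51, adjusted p = 0.000937). SOCS3, a feedback inhibitor of cytokine receptors, was higher in both groups than in WT, with 32.6 and 28.8 CPM in the T133A libraries and 27.1 and 25.03 CPM in the KO libraries, against 12.6 and 12.3 CPM in the WT libraries (adjusted p = 7.85e-07 in T133A and 2.08e-06 in KO). The kinases JAK1 and IKBKE were also higher in both. JAK1 had log2 fold changes of 0.51 in T133A with WT and 0.63 in KO with WT (adjusted p = 0.00135 and 1.7e-05), and IKBKE 1.35 and 0.59 (adjusted p = 1.08e-06 and 0.00293). Chosen after their values were seen, PIAS1 was the gene called lower in T133A with WT (-0.45, adjusted p = 0.0242), and IRF3 and SOCS1 were those called lower in T133A with KO.

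Interferon transcripts themselves were scarce in the 6 libraries. IFNB1 had 0.115 and 0.235 CPM in the T133A libraries and 0.0607 and 0.0538 CPM in the KO libraries, against 0.00 and 0.00 CPM in the WT libraries. A count of 0 allows up to 3 counts, or 0.160 to 0.184 CPM depending on the library. IFNB1 had too few counts to be tested, and no comparison of its levels is made. IFNL1, IFNL2 and IFNL3, which encode lambda interferons, were at 0 to 0.470 CPM and left out of the test, as were IFNA1 and IFNK, and IFNG had no count. IFNE, an epithelial interferon, had 1.73 and 2.29 CPM in the T133A libraries and 1.58 and 0.323 CPM in the KO libraries, against 2.16 and 1.73 CPM in the WT libraries, and no comparison passed the test. The plot of receptor, signalling and feedback genes by library shows the values of 14 of these genes.

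**Figure D5:**
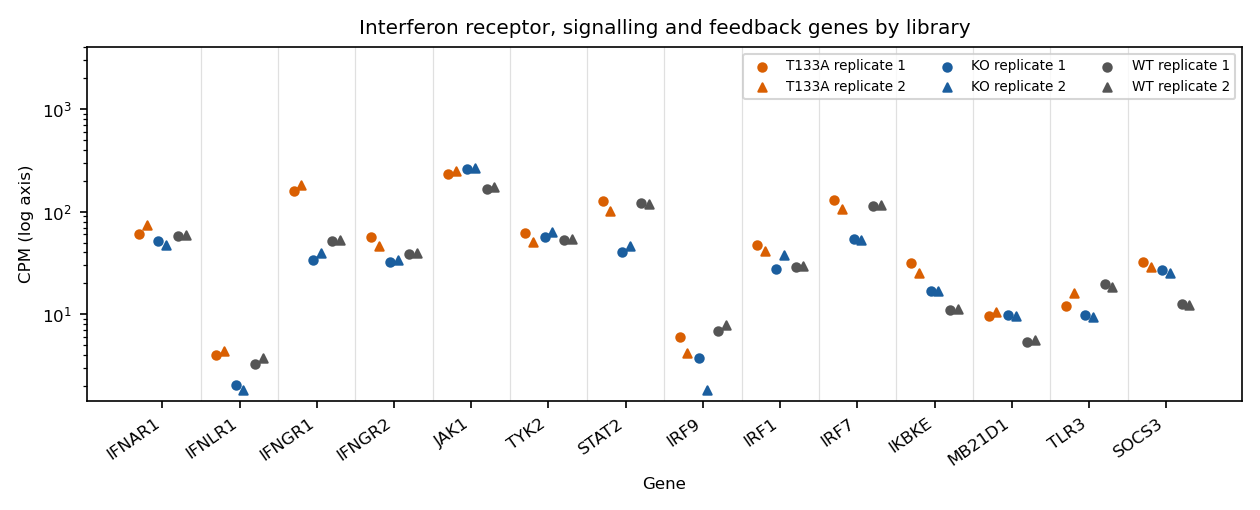
CPM (y axis, log scale) of 14 interferon receptor, signalling and feedback genes (x axis) in each of the 6 libraries; colours mark the group and symbols the replicate. STAT2, IRF9 and IRF7 are lowest in KO, IFNGR1 is highest in T133A, and SOCS3 is higher in T133A and KO than in WT.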

How the data were processed

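Per the labels' protocols, RNA of A549 cells kept in RPMI 1640 with 10% serum was extracted with Trizol and made into libraries by a standard Illumina procedure. Neither the strand setting nor the annotation release is given in the sources used here. HISAT2 2.0.5, featureCounts 1.5.0 and the build GRCh38 are named in the submitters' processing notes. Each deposited file holds, for 1 library, the authors' read count per gene (whole numbers, not normalized) and an FPKM value per gene. The deposited FPKM values were not used for any result. Counts of overlapping genes, antisense pairs and similar copies may be shared, split or dropped.

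The members, lists and comparisons were chosen with earlier results of these data known. Counts were tested with edgeR 4.0.16 (R 4.3.3; TMM scaling, filterByExpr with a minimum count of 10, robust glmQLFit and glmQLFTest, two-sided) in 1 fit of the 6 libraries over 16340 genes, with group as the only term, and adjusted over all of them by Benjamini-Hochberg with a threshold of 0.05. The biological coefficient of variation was 8.96%. Fold changes are the first-named group over the second, and each SE is the log2 fold change divided by the square root of its F value. Totals were 16299059 to 18745432 counts per library, at which 3 counts equal 0.160 to 0.184 CPM. Such limits cover counting error only. Library values are given for called ISGs among the 12 smallest adjusted p of a comparison, and other called ISGs get means ± SD (n = 2 each) or a fold change. From the pathway list and a second list the named genes are those with the 4 smallest adjusted p per comparison, along with STAT2, IRF9, IRF7, IFNB1 and the IFNL genes; some genes of these lists are counted but not reported here by name.

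Alternative settings were DESeq2 1.42.0, limma-voom (limma 3.58.1), scaling by RLE or by library size only, a low-count filter at a mean of 5 CPM or none, a fit of the 2 compared groups alone, a replicate block, loess offsets per library for GC content and length (span 0.5; GENCODE 29 transcripts cover 99.95% of tested genes), these offsets with the block, and leaving out each library. A crossed block for T133A with KO was added after the data were seen. Promoter windows came from RefSeq (GRCh38.p14). Files were read and figures drawn with Python 3.11.15, pandas 2.3.3, numpy 2.4.6 and matplotlib 3.10.9.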

Additional observations from a re-analysis of the deposited data

How the results depend on the processing

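Of the ISG counts, those for KO with WT and T133A with KO kept their size in every alternative run. In KO with WT 47 were called lower in each (44 of 45 tested with a minimum mean of 5 CPM), and each of the 47 was called in all 16 alternatives in which it was tested. In T133A with KO 48 were called higher in each, except 45 of 45 with the 5 CPM minimum and 47 without KO replicate 2, where RTP4 was lost. The count of 6 lower in T133A with WT was less stable: it was 11 with library size only, 12 with GC and length offsets, and 3 to 10 when each library was left out in turn (3 without WT replicate 1, 10 without T133A replicate 2). The count of 1 higher was 2 with GC and length offsets, and 1 to 2 with libraries left out. Of the 7 ISGs called there, GBP1, IFI44L, DDX60 and XAF1 were called in all 16 alternatives. SAMD9L was lost without WT replicate 1 (adjusted p = 0.0605). PARP14 was lost without T133A replicate 1 or either WT library (adjusted p = 0.117 to 0.214). IFI44 was lost with DESeq2, with the block and without T133A replicate 1 or either WT library (adjusted p = 0.0584 to 0.311). The cause was not tested. No called ISG changed sign in an alternative in any of the 3 comparisons. Among the ISGs not called in T133A with WT, 16 had a fold change of the opposite sign in at least 1 alternative (MX1, for example, ranged from -0.36 to 0.01 on the log2 scale), and none of the 16 was called in the opposite direction.

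With GC and length offsets the median log2 fold change of all genes was 0.158 in KO with WT and -0.150 in T133A with KO (0.001 and -0.010 with TMM alone); relative to that median the ISG median was -1.73 and 1.59, against -1.77 and 1.51 with TMM alone. Of all genes called, 65.8% were higher in KO with WT with the offsets (50.7% with TMM alone) and 34.3% in T133A with KO (50.9%). In T133A with WT, 45% of 1486 called genes were higher with library size only and 61.2% of 2272 with the offsets (58.5% of 1560 with TMM alone). Relative to the median of all genes, the ISG median in T133A with WT was -0.089 in both settings, against -0.087 with TMM alone.

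The labels state no pairing of libraries by replicate number. Deviations of same-numbered libraries correlated at -0.118 between T133A and KO, -0.052 between T133A and WT and 0.023 between KO and WT. These values show no sign of pairing but cannot exclude it, because the deviations also followed GC content, in directions that differed between groups. With the replicate block 5 ISGs were lower and 1 higher in T133A with WT (8 lower with the offsets and the block), 47 lower in KO with WT and 48 higher in T133A with KO. The crossed block gave 48 higher in T133A with KO.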

Other observations

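A second list of 48 interferon-responsive genes outside the ISG set had 44 that could be tested. In KO with WT 30 were lower and 2 higher (median log2 fold change -0.63), in T133A with WT 1 was lower and 9 higher (median 0.10), and in T133A with KO 3 were lower and 33 higher (median 0.76). Of all genes tested 23.0% were lower and 23.6% higher in KO with WT, 3.97% lower and 5.58% higher in T133A with WT, and 19.6% lower and 20.3% higher in T133A with KO. TNFSF10, the death ligand TRAIL, had 31.9 and 33.7 CPM in the T133A libraries and 1.52 and 1.29 CPM in the KO libraries, against 35.8 and 37.9 CPM in the WT libraries. KO was low in both libraries and T133A lay slightly below WT (log2 fold change in KO with WT -4.71, adjusted p = 3.21e-15). B2M, the light chain of MHC class I, had 1560.3 and 1558 CPM in the T133A libraries and 397 and 440.3 CPM in the KO libraries, against 1286 and 1358 CPM in the WT libraries (log2 fold change -1.66, adjusted p = 1.97e-11). SAMHD1, which depletes nucleotides needed by viruses, and the helicase HELZ2 also fell in KO, with log2 fold changes of -1.38 and -1.34 (adjusted p = 1.73e-10 and 2.04e-09).

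Of the genes higher in T133A with WT, SLFN5, GBP5, GBP4 and IDO1 had the smallest adjusted p. SLFN5 had 105 and 112 CPM in the T133A libraries and 32.9 and 40.4 CPM in the KO libraries, against 62.7 and 60.1 CPM in the WT libraries (log2 fold change in T133A with WT 0.82, adjusted p = 2.54e-05). GBP4 had 19.3 and 14.5 CPM in the T133A libraries and 2.49 and 4.74 CPM in the KO libraries, against 6.78 and 6.69 CPM in the WT libraries (log2 fold change 1.33, adjusted p = 0.000165). GBP5 had 1.78 and 2.65 CPM in the T133A libraries and 0.243 and 0.269 CPM in the KO libraries, against 0.0585 and 0.223 CPM in the WT libraries (adjusted p = 0.000142), and its fold change is not given because WT held few counts. IDO1, a tryptophan-degrading enzyme, had 9.66 and 9.41 CPM in the T133A libraries and 0.121 and 0.00 CPM in the KO libraries, against 3.45 and 3.96 CPM in the WT libraries; T133A was high and KO at or near 0 (adjusted p = 0.000376 in T133A with WT and 1.67e-11 in T133A with KO). Of the guanylate-binding proteins measured, GBP1, GBP2, GBP4 and GBP5 were called higher in T133A with WT and GBP3 was not (log2 fold change -0.29, adjusted p = 0.193). The chemokine CXCL10 had 1.26 and 1.53 CPM in the T133A libraries and 0.0607 and 0.00 CPM in the KO libraries, against 0.292 and 0.279 CPM in the WT libraries (adjusted p = 0.0169 in T133A with WT). Its fold change is not given either, because WT held few counts. GBP2, GBP3 and CXCL10 were picked out after their values were seen.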
